A study of Drosophila melanogaster with 18 samples.

Results

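The phototransduction cascade of the fly was described through 10 of its genes, Gbeta76C, norpA, trp, trpl, inaC, inaD, Arr1, Arr2, ninaC and ninaA, which were taken by gene symbol and FlyBase identifier from a count table of 17825 genes. Of these 10 genes, 8 had counts and are described below, while Arr2 and ninaA could not be measured. The data came from an RNA-seq survey of microexons in w1118 flies, an isogenic strain that the study calls wild-type. It had 9 conditions with 2 libraries of polyA RNA in each, and no condition had a treatment. The adult parts were male heads, female heads, male bodies, female bodies (the abdomen with the thorax), testes and ovaries of 24 h adults, sequenced as strand-specific reads of 150 bp. The stages were whole 18 h embryos, whole wandering larvae of the third instar and whole 24 h adults whose sex is not given, sequenced as reads of 100 bp without strand information, so parts and stages were fitted apart. One place in the study's text gives another age for the whole adults. The labels do not say how many animals a library holds or whether the 2 libraries of a condition came from separate flies, so the p-values below measure only the spread between these libraries. A head holds the retina together with the brain, the ocelli and other tissue, and in such bulk samples fewer cells of a type and less RNA per cell cannot be told apart.

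In a fly photoreceptor, light turns rhodopsin into an active form that switches on a Gq protein, which activates a phospholipase C in the microvilli of the rhabdomere. Breakdown of the membrane lipid PIP2 then opens the TRP and TRPL cation channels and depolarises the cell, so the fly eye signals through lipid breakdown and not through cyclic GMP as vertebrate rods do. A scaffold holds the lipase, a channel and a kinase together, and arrestins and the kinase end the response.

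The genes were spread over chromosome arms 2L, 2R, 3L, 3R and X (coordinates of the dm6 assembly as given in the count table, each equal to the position in the Ensembl annotation). Gbeta76C (FBgn0004623), the eye's G protein beta subunit, lies on chromosome 3L from 19687637 to 19689992 on the plus strand. norpA (FBgn0262738), the phospholipase C, is the longest gene of the group and lies on chromosome X from 4322626 to 4365408 on the plus strand, with CG12693 inside it on the other strand. The channel genes are trp (FBgn0003861) on chromosome 3R from 29914521 to 29920289 on the minus strand and trpl (FBgn0005614) on chromosome 2R from 9753697 to 9765518 on the plus strand. CG1690 lies in the span of trpl outside its exons. The eye protein kinase C gene inaC (FBgn0004784) lies on chromosome 2R from 16898535 to 16901575 on the plus strand, and inaD (FBgn0001263), which encodes the PDZ domain scaffold, lies on chromosome 2R from 22855688 to 22858794 on the minus strand and shares 7 bp with RpL23. Arr1 (FBgn0000120), an arrestin, lies on chromosome 2L from 18078269 to 18081307, and ninaC (FBgn0002938), a class III myosin with a kinase domain, lies on chromosome 2L from 7377702 to 7384344, both on the plus strand.

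Arr2 and ninaA had 0 counts in all 18 libraries, heads included. Arr2 (FBgn0000121), the major arrestin of the eye, occupies chromosome 3L from 8647261 to 8648936 on the minus strand and lies wholly within Pex7 on the plus strand. ninaA (FBgn0002936), a cyclophilin that helps the opsin Rh1 through the secretory pathway, occupies chromosome 2L from 877302 to 878270 on the plus strand and lies wholly within CG15824 on the minus strand. All 3487 genes of the table that are wholly covered by other genes had 0 counts in every library, so the zeros of Arr2 and ninaA say nothing about their expression and no value is given for them.

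The 8 measured genes had their highest CPM in the heads of both sexes, lower values in whole adults, and lower ones again in the other 6 conditions. Stages and parts differ in protocol and were scaled apart, so the order between them carries no test. The values below are CPM, the read counts scaled to a common library size after TMM correction, with replicate 1 before replicate 2. Gbeta76C stood at 1013 and 802 CPM in male heads and at 1180.3 and 874 CPM in female heads. Outside the head it lay at 2.85 and 1.01 CPM in male bodies, 2.03 and 0.849 CPM in female bodies, 1.48 and 0.662 CPM in testes, and 1.80 and 0.471 CPM in ovaries. Every head library was therefore above every body and gonad library, and the ranges of the 4 conditions outside the head overlapped one another.

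norpA had the same order of heads over all other parts, but with a much higher level outside the head. It stood at 2532 and 2441 CPM in male heads and at 2492 and 2247 CPM in female heads. It lay at 44.7 and 51.6 CPM in male bodies, 115 and 135 CPM in female bodies, 19.4 and 20.9 CPM in testes, and 146 and 175 CPM in ovaries. These 4 conditions did not overlap and ran from ovaries through female bodies and male bodies down to testes. The count table gives each gene its whole span, and norpA has 8.296 kb of exon in a span of 42.783 kb. Reads from introns may be among the counts, and their part in the norpA values was not tested.

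The channel genes resembled each other in the adult parts. The trp gene, which encodes the channel that carries most of the light response, reached 3259.9 and 2545 CPM in male heads and 3728 and 2298 CPM in female heads. It lay at 7.30 and 1.97 CPM in male bodies, 5.79 and 2.27 CPM in female bodies, 5.47 and 2.71 CPM in testes, and 5.03 and 1.24 CPM in ovaries. The ranges outside the head overlapped, so no order among bodies and gonads could be read for trp.

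For trpl, the related channel that moves out of the rhabdomere in light, male heads had 3072 and 2535 CPM and female heads 3949.5 and 2914 CPM. It lay at 7.51 and 4.17 CPM in male bodies, 6.13 and 2.86 CPM in female bodies, 6.28 and 3.62 CPM in testes, and 6.81 and 2.73 CPM in ovaries. As for trp, the conditions outside the head overlapped.

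The genes of the signalling complex, inaC and inaD, gave the same picture. inaC had 848 and 581 CPM in male heads and 972 and 617 CPM in female heads, against 0.424 to 1.78 CPM in the 8 body and gonad libraries. inaD had 1702 and 1293 CPM in male heads and 2186 and 1170.1 CPM in female heads, against 0.884 to 3.36 CPM in body and gonad libraries. No head library of either gene came near a body or gonad library.

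Arr1, which binds light-activated rhodopsin, stood at 4704 and 3049.5 CPM in male heads and at 5423 and 3021 CPM in female heads. It lay at 18.4 and 6.91 CPM in male bodies, 8.26 and 1.82 CPM in female bodies, 28.4 and 13.4 CPM in testes, and 6.95 and 2.20 CPM in ovaries. Both testis libraries were thus above both female body and both ovary libraries, while testes and male bodies overlapped. ninaC, whose myosin anchors proteins of the cascade in the rhabdomere, had 4367 and 3475 CPM in male heads and 5166 and 3313 CPM in female heads, against 2.51 to 9.34 CPM in bodies and gonads, where the conditions overlapped.

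**Figure D1:**
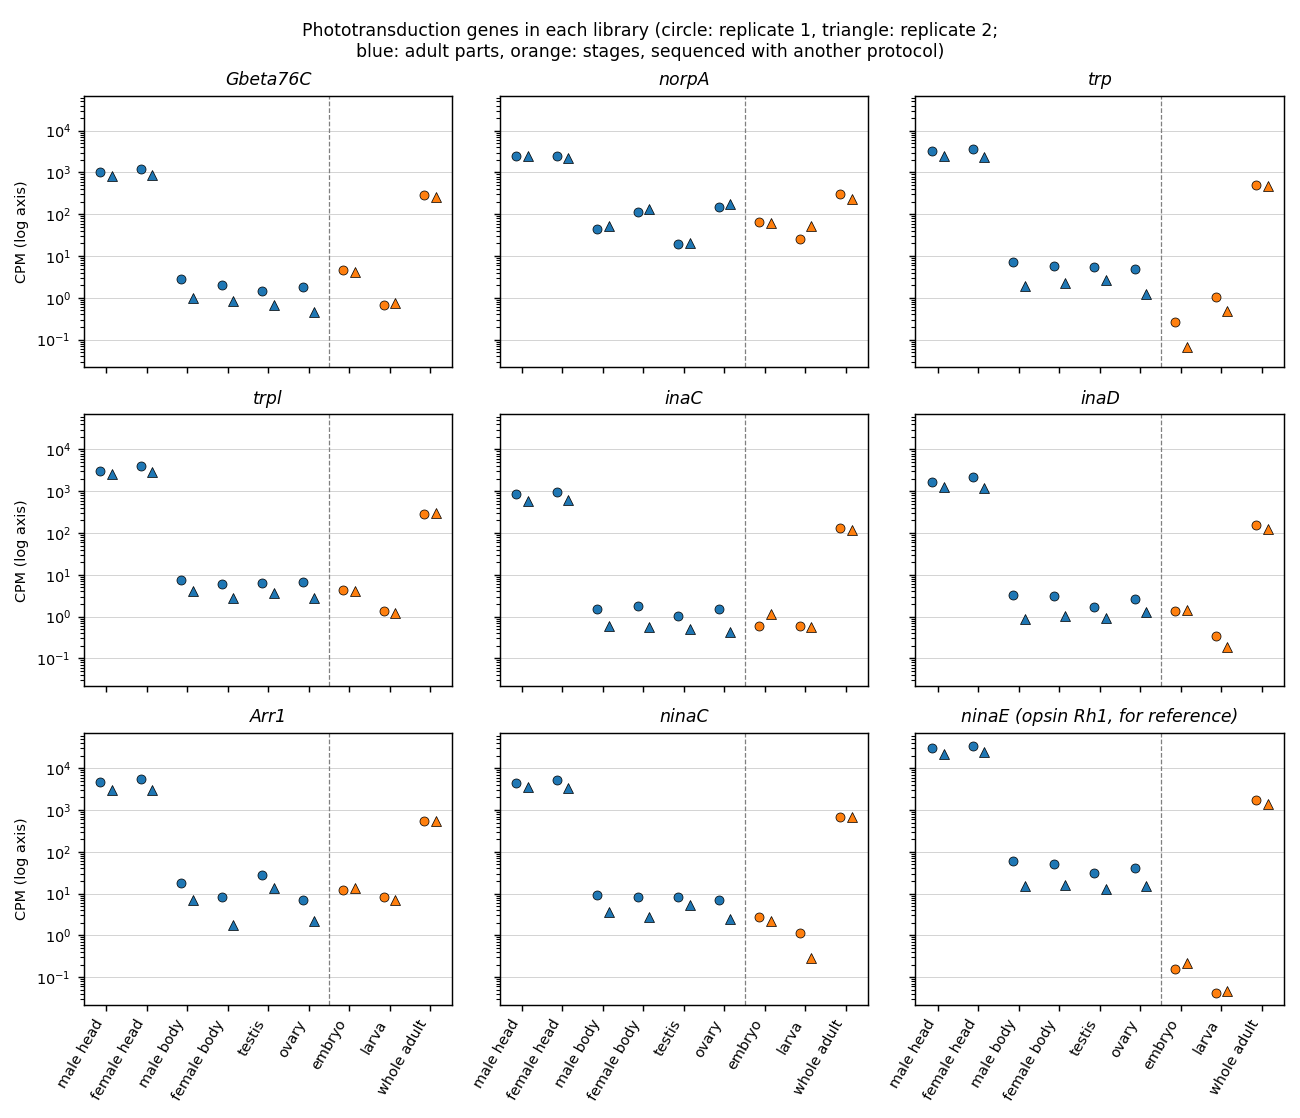
CPM on a log axis of the 8 measured genes, and of the opsin gene ninaE for reference, in each of the 18 libraries, with a circle for replicate 1 and a triangle for replicate 2 of a condition. The 4 head libraries are the highest in each panel, although the stages had another protocol and were scaled apart. Of the 8 measured genes, norpA alone keeps at least 19.4 CPM in every body and gonad library.

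Heads were compared with bodies and gonads of the same sex, which asks how far each gene is concentrated in the head. In males, 8 of 8 measured genes were higher in heads than in bodies (edgeR's quasi-likelihood test, Benjamini-Hochberg adjusted over all genes, with a call at 0.05 on the adjusted p and at a change of 1 or more on the log2 scale), where 20.9% of all genes tested were higher. In females, 8 of 8 were higher in heads than in bodies, against 19.2% of all genes. Against gonads, 8 of 8 were higher in male heads than in testes, against 37% of all genes, and 8 of 8 in female heads than in ovaries, against 27.4%. On the log2 scale the 8 genes had a median change from body to head of 9.08 in males and 9.56 in females, where the medians of all genes were −0.09 and −0.36. Markers of neurons and glia moved with these results, while those of muscle and fat body did so as a set only against gonads. Of 5 fat body markers, 0 were higher in male heads and 1 in female heads than in bodies. Of 3 tested muscle markers, 0 were higher than in bodies in either sex. Against testes and against ovaries, 5 of 5 fat body and 3 of 3 muscle markers were higher in heads. Of 7 neuron markers 6 were tested and 6 of 6 were higher in heads in each of the 4 comparisons, with median log2 fold changes of 4.73 and 5.82 over male and female bodies, and of 8.90 and 9.54 over testes and ovaries, where the 8 cascade genes had medians of 9.32 and 9.78. The single tested glia marker of 3 was also higher in all 4, and the part of neurons and glia in the cascade values was not tested.

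The size of the difference was close to the same for most of the genes and smaller for norpA. From male bodies to male heads the log2 fold change was 8.88 (SE 0.97, adjusted p = 0.000131) for Gbeta76C, 9.29 (SE 1.12, adjusted p = 0.000209) for trp and 5.69 (SE 0.28, adjusted p = 1.45e-05) for norpA. The other genes lay between 8.26 (Arr1) and 9.46 (inaD). From female bodies to female heads it was 9.47 (SE 0.997, adjusted p = 6.73e-05) for Gbeta76C and 4.25 (SE 0.26, adjusted p = 6.34e-06) for norpA, and the other genes lay between 9.39 (inaC) and 9.71 (Arr1). Against testes norpA had a log2 fold change of 6.95 (SE 0.29) and Arr1 one of 7.53 (SE 1.08), the lowest values there, while the other genes lay between 9.15 (trpl) and 10.13 (inaD). Against ovaries norpA stood at 3.88 (SE 0.25) and the other genes between 9.49 (trpl) and 9.91 (trp). The SE of norpA was 0.25 to 0.29 in these comparisons, and the largest SE of any gene was 1.19. The SE of an edgeR change, here and below, is its absolute value over the square root of the test's F statistic. It is not a separately fitted standard error, and it can depend on the size of the change.

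**Figure D2:**
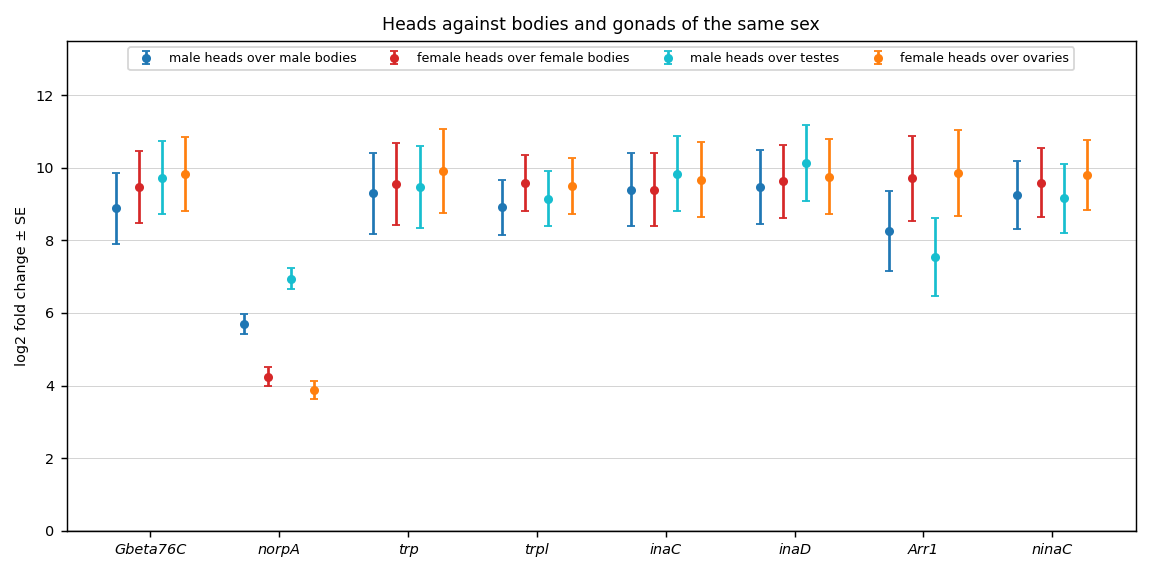
Log2 fold change of the 8 measured genes from bodies or gonads to the heads of the same sex, from the fit of the 12 libraries of adult parts. Error bars are the SE, computed as the absolute change over the square root of the test's F statistic. norpA lies below the other genes in all 4 comparisons, from 3.88 over ovaries to 6.95 over testes, and Arr1 over testes is at 7.53.

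Set against the head level of the same sex, norpA remained at 1.80% and 2.08% in male bodies, 4.84% and 5.68% in female bodies, 0.779% and 0.841% in testes, and 6.17% and 7.40% in ovaries. The other 7 genes stood between 0.0411% and 0.733% of their head level in the 8 body and gonad libraries, and without Arr1 the highest value was 0.314%. The 12 eye marker genes lay between 0.0361% and 1.93% in the same libraries, with a median of 0.207%, and among them the opsin gene ninaE, which marks the outer photoreceptors, lay between 0.0484% and 0.229%. For the 7 genes other than norpA, replicate 1 was above replicate 2 in 28 of 28 pairs of a gene and a body or gonad condition, by 1.58 to 4.55 times. Each of the 4 conditions has a single pair of libraries, and genes of the same library are not separate observations. The share over all genes is not given here, so the pattern is not shown to be particular to these genes. Over the 12 eye markers replicate 1 was the higher in 39 of 48 such pairs, and for ninaE it was so by 2.39 to 3.95 times, while Crys, Hdc, chp, gl and Rh5 had the higher value in replicate 2 in the other 9 pairs. For norpA replicate 2 was the higher in all 4 of these conditions. Whether reads from heads account for any of the body and gonad counts was not tested. Without replicate 1 of bodies and gonads, an alternative chosen after seeing these values, 8 of 8 genes were still higher in heads in each of the 4 comparisons.

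**Figure D3:**
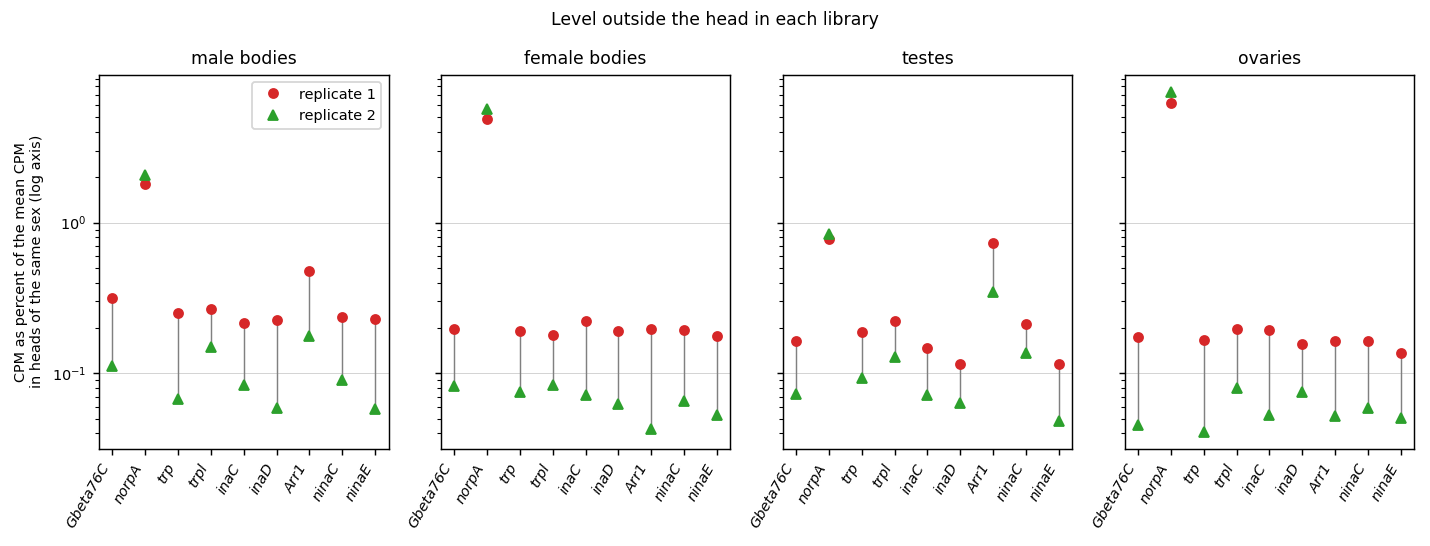
CPM of each gene in the body and gonad libraries as a percent of its mean CPM in the heads of the same sex, on a log axis, with a circle for replicate 1 and a triangle for replicate 2. norpA reaches 7.40% in an ovary library, the other genes stay at or below 0.733%, and replicate 1 is above replicate 2 for all of them except norpA.

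The ratio of a gene to trp within a library does not depend on the scaling of libraries. For norpA the log2 ratio to trp ran from −0.58 to −0.03 in the 4 head libraries, from 2.61 to 5.88 in the 4 body libraries and from 1.82 to 7.13 in the 4 gonad libraries, so heads were apart from both. For each of the other 6 genes the ranges of heads overlapped those of bodies and those of gonads. The paralogous channel genes were compared directly: the log2 ratio of trp to trpl counts was −0.08 ± 0.19 (SD, n = 4) in heads and −0.38 ± 0.48 (SD, n = 4) in bodies, a difference of 0.30 that was not past the threshold (two-sided exact permutation test, p = 0.286, where 0.0286 is the smallest p that 4 against 4 libraries allow).

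Between the sexes, 0 of 8 genes differed in heads (edgeR, adjusted p = 1 for each gene, log2 fold changes of female over male heads from −0.07 for norpA to 0.29 for trpl, SE 0.22 to 0.81), and 0 of 8 had an unadjusted p under 0.05. DESeq2's Wald test also called 0 of the 8. Among all genes 0.0318% were called in this comparison, in either direction, and 302 of 12597 had an unadjusted p under 0.05. For the genes other than norpA the SE was 0.53 to 0.81, so a moderate difference between male and female heads would not have been detectable in them. For norpA the SE was 0.22. In heads too, replicate 1 was above replicate 2 in 16 of 16 pairs of a gene and a sex, by 1.04 to 1.87 times, from a single pair of libraries in each sex. The share over all genes is not given here either. The summed level of 12 eye marker genes was 29528 to 38937 CPM in male heads and 33654 to 44537 CPM in female heads.

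In bodies, norpA was the gene that differed between the sexes. Its 2 female body libraries, at 115 and 135 CPM, were both above the male ones, at 44.7 and 51.6 CPM, and the log2 fold change was 1.37 (SE 0.23, edgeR adjusted p = 0.00133), while 24.4% of all genes were higher in female bodies. The ovary markers moved with it: 4 of 5 tested were higher in female bodies, their summed level was 14765 to 19589 CPM there and 82.5 to 97.2 CPM in male bodies, and norpA itself was at 146 and 175 CPM in ovaries. The part of ovarian RNA in the difference was not tested. The call depends on the processing: with DESeq2's size factors the log2 fold change was 0.87 (adjusted p = 0.0108) and by DESeq2's Wald test also 0.87 (adjusted p = 0.000109), below the minimum fold in both, and without replicate 1 of male bodies or replicate 2 of female bodies it was 0.44 (adjusted p = 0.260) and 0.48 (adjusted p = 0.223). DESeq2's size factors moved the median of all genes in this comparison from −0.18 to −0.69, and relative to that median norpA was higher by 1.55 with TMM and by 1.56 with DESeq2's size factors. A new scaling shifts all genes of a comparison about alike, so the agreement of these 2 values was fixed in advance and does not restore the call.

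The change from body to head was therefore smaller in females for norpA, with a difference of the log2 fold changes of −1.44 (SE 0.32, edgeR adjusted p = 0.0101), where 19.1% of all genes were lower. This call was likewise lost with DESeq2's size factors (−0.94, adjusted p = 0.0508) and without replicate 1 of male bodies (−0.47) or replicate 2 of female bodies (−0.51). The median of all genes was 0.17 with TMM and 0.68 with DESeq2's size factors, and relative to it norpA lay at −1.61 and −1.62. Here too the agreement was fixed in advance by the common shift of all genes.

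Arr1 went the other way in bodies, with 8.26 and 1.82 CPM in females and 18.4 and 6.91 CPM in males. These ranges overlapped, and the log2 fold change of −1.33 (SE 0.83, edgeR adjusted p = 0.198) was not called, while 27.7% of all genes were lower in female bodies. With the replicate number as a block it was −1.46 with an adjusted p of 0.00775, and the difference of the head-to-body changes between the sexes, 1.45 (SE 1.16, adjusted p = 0.356), became 1.54 with an adjusted p of 0.0372, where 15.7% of all genes were higher. The body difference of Arr1 was also called without replicate 1 of female bodies (−2.70, adjusted p = 0.0307) and by DESeq2's Wald test (−1.87, adjusted p = 0.0405). Testis markers were at 707 to 1205 CPM in male bodies and 18.9 to 29.6 CPM in female bodies in sum. Of 6 tested, 5 were lower and 1 was higher in female bodies, and their part in the Arr1 values was not tested. The remaining 6 genes had log2 fold changes between −0.42 (Gbeta76C) and 0.15 (inaC) from male to female bodies and none was called.

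The bodies held gonad RNA, so a comparison of bodies with gonads sets a mixture against one of its parts. Ovary markers summed to 14765 to 19589 CPM in female bodies and 18185 to 23559 CPM in ovaries. Testis markers summed to 707 to 1205 CPM in male bodies and 1843 to 3485 CPM in testes. With this limit, bodies and gonads of the same sex differed for norpA in males. It was higher in male bodies than in testes by a log2 fold change of 1.26 (SE 0.23, edgeR adjusted p = 0.00288), 1 of 8 genes against 24% of all genes. This call was lost with DESeq2's size factors (0.70, adjusted p = 0.0389, under the minimum fold), and without replicate 2 of male bodies (0.83, adjusted p = 0.139) or replicate 2 of testes (0.97, adjusted p = 0.0821). Relative to the median of all genes norpA was higher by 1.26 with TMM and by 1.25 with DESeq2's size factors, since that median moved from 0.00 to −0.55. A scaling shifts all genes about alike, so this agreement was also fixed in advance. Between female bodies and ovaries 0 of 8 genes were called by edgeR and 0 by DESeq2's Wald test, and 0 had an unadjusted p under 0.05, against 19.6% of all genes higher and 0.127% lower. norpA had a log2 fold change of −0.37 there (SE 0.23, adjusted p = 0.294).

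Levels were compared between genes only in heads and per length of annotated exon, although reads from introns may be among the counts. Arr1 was the highest of the group at 1636 ± 488 CPM per kb (SD, n = 4 head libraries), followed by trpl at 801 ± 154, ninaC at 752 ± 158, trp at 713 ± 158, inaD at 681 ± 197 and Gbeta76C at 660 ± 114 CPM per kb. inaC stood at 321 ± 79.6 and norpA at 293 ± 15.2 CPM per kb, so that the range from norpA to Arr1 was 5.59-fold. Among 12553 genes ranked on this scale, Arr1 was number 16, trpl number 65 and norpA number 257. ninaE was at 17586 ± 3889 CPM per kb, 10.8-fold above Arr1.

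Only some of the steps in this order held in every head library. Arr1 was above trpl in 4 of 4 libraries by a mean log2 ratio of 1.001, Gbeta76C above inaC in 4 of 4 by 1.06, and ninaC above trp in 4 of 4 by 0.08. trpl and ninaC, trp and inaD, inaD and Gbeta76C, and inaC and norpA changed places between libraries, so these neighbours did not differ beyond their spread. Per kb of the whole gene span, the length used in the count table, trpl fell from the second to the sixth place at 264 CPM per kb and norpA stayed last at 56.7 CPM per kb.

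**Figure D4:**
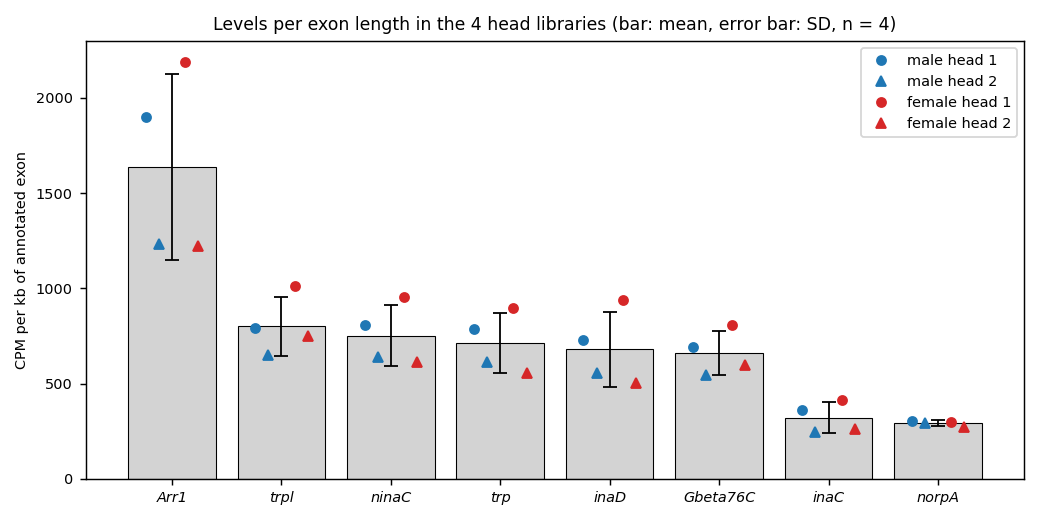
CPM per kb of annotated exon in the 4 head libraries, with bars for the mean, error bars for the SD (n = 4) and points for single libraries. Arr1 leads at 1636, a group from trpl to Gbeta76C lies between 660 and 801, and inaC and norpA are lowest at 321 and 293.

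The genes whose levels over the 12 libraries of adult parts were most like the group were led by ninaE. Pearson's r of log2 CPM with the mean standardised level of the 8 genes was 0.999 for this opsin gene, 0.998 for Rh3, another opsin, 0.997 for retinin, a protein of the corneal lens, 0.997 for Cpn, a calcium-binding protein of photoreceptors, and 0.996 for DIP-beta, gl (a transcription factor of photoreceptors), Pkc53E and rho-5. These correlations describe 12 libraries of which 4 are heads, share their scaling and carry no test. Of 12589 other genes, 28 had an r of at least 0.99. Within the group r was 0.927 for norpA and 0.978 for Arr1, and 0.998 or above for the other 6 genes. Each of these genes is itself part of the mean, which raises its r, so these values are not comparable with those of other genes. Pairs of the 8 genes correlated at 0.829 to 0.999, and pairs without norpA at 0.974 to 0.999.

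Other genes of the cascade had a lower median change from body to head. Of 20 tested genes of a list of 24, 17 were higher and 1 was lower in male heads than in bodies, and 14 were higher and 2 lower in females, with median log2 fold changes of 2.56 and 2.35. In the same list 19 were higher and 1 lower in male heads than in testes, and 14 higher and 2 lower in female heads than in ovaries. Of all 12597 genes 2639 were higher and 3858 lower in male heads than in bodies, and 2416 and 3228 in females. Against testes 4663 were higher and 4000 lower, and against ovaries 3453 and 3608. Galphaq, the alpha subunit that couples rhodopsin to norpA, was higher in heads by 2.52 (SE 0.34) in males and 2.95 (SE 0.34) in females. Ggamma30A, the gamma subunit that pairs with Gbeta76C, was higher by 5.71 (SE 0.62) and 6.70 (SE 0.64). The largest changes in the list were those of rtp, an adaptor of ninaC, at 8.80 and 9.04, and of rdgC, the rhodopsin phosphatase, at 5.75 and 6.68. The smallest were those of Trpgamma, another TRPC channel, which was lower in heads by −1.70 and −1.36, of the phospholipase D gene Pld at −0.83 in males, where it was not called, and −1.98 in females, and of the ceramide kinase gene Cerk, which was not called in either sex (0.81 and 0.43).

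The opsins and the supply of their chromophore behaved partly like the cascade. Of 13 tested genes, 10 were higher and 1 was lower in male heads than in bodies and 10 were higher in females, and 12 and 11 were higher than in testes and ovaries. Rh3 was higher by 9.57 (SE 0.93) in male and 9.66 (SE 0.93) in female heads, and ninaE by 9.45 (SE 1.18) and 9.77 (SE 1.20). The ocellar opsin Rh2 was at 67.8 and 79.6 CPM in male heads, at 106 and 127 CPM in female heads and at or below 0.356 CPM in the 4 body libraries. ninaD, a carotenoid receptor, was lower in male heads by −3.02 (SE 0.60) and was not called in females (−0.43), while the retinoid-binding pinta (0.61 and −0.47) and the chaperone Cnx99A (−0.03 and 0.25) were not called in either sex. Of 11 tested genes of photoreceptor structure and transmitter, 10 were higher in male heads and 11 in female heads than in bodies. They were led by gl (8.36 and 8.44), the adhesion protein of photoreceptors chp (7.71 and 9.03) and the histamine receptor ort, which stood at 34.0 and 35.0 CPM in male and female heads on average. The smallest changes in this list were those of crb (2.53 and 1.06), e, which was called only in the female comparison (1.31 and 2.68), and lovit (2.85 and 4.59). The 12 eye marker genes were 12 of 12 higher in heads in each of the 4 comparisons.

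Across the stages the 8 measured genes were at their highest in whole adults. Gbeta76C had 4.60 and 4.16 CPM in embryos, 0.688 and 0.737 CPM in larvae and 283 and 258 CPM in adults, so that embryos were above larvae without overlap. norpA had 64.7 and 60.7 CPM in embryos, 26.1 and 53.0 CPM in larvae and 299.9 and 237 CPM in adults. Before the adult stage trp was higher in larvae than in embryos, while trpl was higher in embryos than in larvae. trp had only 23 and 6 counts in the embryo libraries (0.259 and 0.0651 CPM) and 49 and 20 counts in the larval libraries (1.05 and 0.475 CPM), against 500.4 and 481 CPM in adults. trpl had 389 counts in each embryo library (4.37 and 4.22 CPM), 1.36 and 1.21 CPM in larvae, and 289 and 294 CPM in adults. The ratio of trp to trpl counts was thus 0.060 and 0.017 in embryos, 0.780 and 0.398 in larvae and 1.73 and 1.64 in adults, and the 3 stages did not overlap.

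The kinase gene inaC had 0.596 and 1.16 CPM in embryos, 0.602 and 0.570 CPM in larvae, and 129 and 119 CPM in adults. inaD had 1.39 and 1.43 CPM in embryos and 154 and 128 CPM in adults, with 16 and 8 counts (0.344 and 0.190 CPM) in larvae. For inaC embryos and larvae overlapped, and for inaD embryos were above larvae. Arr1 had 12.1 and 13.96 CPM in embryos, 8.11 and 6.89 CPM in larvae, and 557 and 544 CPM in adults. ninaC had 2.78 and 2.25 CPM in embryos and 671 and 698 CPM in adults, with 53 and 12 counts (1.14 and 0.285 CPM) in larvae. In both genes embryos were above larvae without overlap. ninaE had 14 and 20 counts in embryos and 2 in each larval library, against 1709 and 1410.0 CPM in adults.

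From larvae to adults 8 of 8 genes were higher, against 23.1% of all genes, with log2 fold changes from 2.76 for norpA (SE 0.36, edgeR adjusted p = 0.00123) to 9.89 for ninaC (SE 0.67, adjusted p = 0.000138). The others were 9.31 for trp, 9.02 for inaD, 8.56 for Gbeta76C, 7.82 for trpl, 7.72 for inaC and 6.20 for Arr1. From embryos to adults 8 of 8 were higher, against 29.7% of all genes, from 2.099 for norpA (SE 0.35, adjusted p = 0.00208) to 11.56 for trp (SE 0.71, adjusted p = 3.25e-05). Next to trp stood ninaC at 8.09 and inaC at 7.14, and the lowest besides norpA was Arr1 at 5.40. Of 20 tested genes of the other cascade list, 9 were higher and 0 lower in adults than in larvae. Against embryos 2 of the 20 were higher and 4 lower, with a median log2 fold change of 0.19. In these comparisons 2194 and 2347 of all 12335 genes were lower. Galphaq stood at 61.6 and 56.8 CPM in embryos, above its 23.9 and 26.9 CPM in adults.

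From embryos to larvae the genes did not move together. Of the 8 genes 1 was higher in larvae, against 31.7% of all genes, and 4 were lower, against 19.3%. trp was higher in larvae by 2.24 (SE 0.61, edgeR adjusted p = 0.0159). Gbeta76C was lower by −2.62 (SE 0.19, adjusted p = 6.82e-05), inaD by −2.38 (SE 0.29, adjusted p = 0.000516), ninaC by −1.80 (SE 0.52, adjusted p = 0.0200) and trpl by −1.74 (SE 0.18, adjusted p = 0.000234). Arr1 (−0.80, adjusted p = 0.0101) was under the minimum fold, and inaC (−0.58) and norpA (−0.66) were not past the threshold. Without replicate 2 of embryos, trp stood at 1.56 (adjusted p = 0.0630) and ninaC at −1.95 (adjusted p = 0.0584), and neither was called. trp was also not called without replicate 1 of larvae (1.55, adjusted p = 0.0784), nor ninaC without replicate 1 of embryos (−1.64, adjusted p = 0.0968), while norpA was called lower without replicate 2 of larvae (−1.27, adjusted p = 0.00313). Of 20 other cascade genes 10 were lower in larvae and 0 were higher, with Ggamma30A at −2.25 (SE 0.21), rdgA at −1.75 (SE 0.32) and Galphaq at −1.49 (SE 0.17). Neuronal markers moved the same way, with 5 of 7 lower in larvae and a summed level of 1363 to 1684 CPM in embryos and 327 to 337 CPM in larvae, and their part in the cascade's values was not tested.

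**Figure D5:**
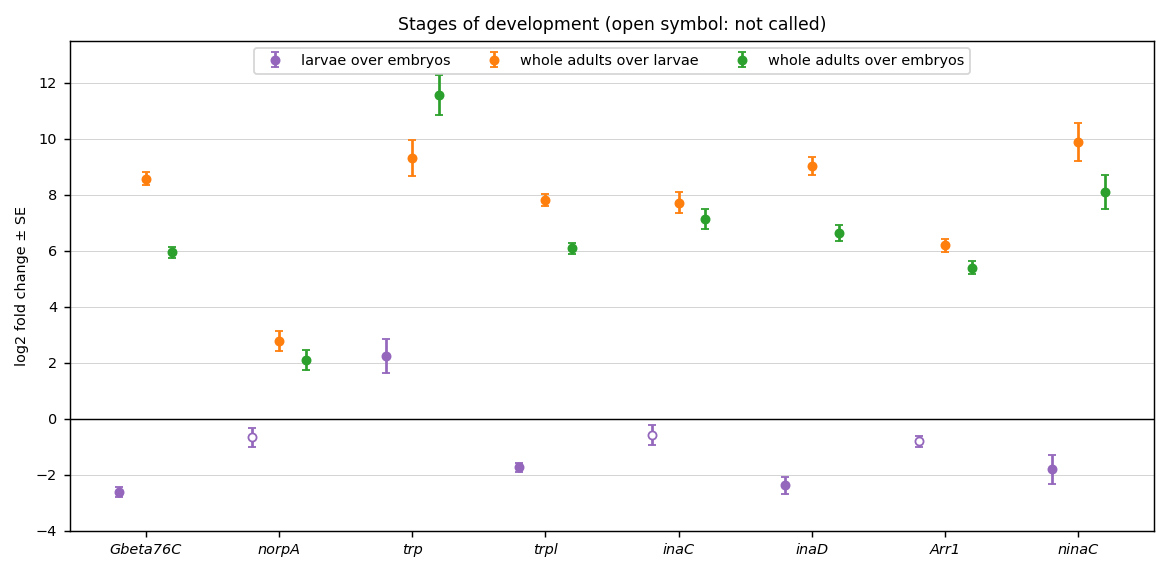
Log2 fold change of the 8 measured genes between stages, from the fit of the 6 stage libraries, with open symbols for changes that were not called. Error bars are the SE, computed as the absolute change over the square root of the test's F statistic. The steps to adults lie between 2.099 and 11.56, and from embryos to larvae trp is at 2.24 while Gbeta76C, inaD, ninaC and trpl are between −2.62 and −1.74.

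Whole adults and heads came from different protocols, so their levels are set side by side with no test. The mean CPM in whole adults was 8.90% of that in heads for inaD, 9.35% for trpl, 11.1% for norpA, 13.6% for Arr1, 16.5% for inaC, 16.6% for trp, 16.8% for ninaC and 28.0% for Gbeta76C, and it was 5.58% for ninaE.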

How the data were processed

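PolyA RNA of 18 libraries was sequenced on an Illumina HiSeq. Per the submitters' processing notes reads were trimmed with cutadapt 1.15 and mapped with TopHat2 2.1.1 to dm6. The authors deposited raw read counts per gene without normalization, and the counter is not given in the sources used here. The length of each gene in the table is its whole span. The libraries summed to between 37198249 and 87676051 counts, and the floor was set at 3 counts a library.

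The 12 libraries of adult parts (12597 genes) and the 6 of stages (12335 genes) were fitted apart by the quasi-likelihood test of edgeR 4.0.16 (R 4.3.3) after TMM scaling and filterByExpr at a minimum count of 10, with the spread estimated over all groups of a fit. A call asked for a p under 0.05 after Benjamini-Hochberg adjustment over all genes and for a change of 1 or more on the log2 scale. The SE of a change was computed as its absolute log2 value over the square root of the test's F statistic. Ratios used 0.5 added to each count. Exon lengths came from an Ensembl annotation, in which 17742 gene identifiers were found. Other steps used Python 3.11.15 and scipy 1.17.1.

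The members and lists were chosen with earlier results of these data known. Named were all 10 members, ninaE, from each list the 3 genes with the largest and the 3 with the smallest head-to-body change, and the 8 genes most correlated with the members. Galphaq, Ggamma30A and rdgA in the stages were named after their values were seen, and so was Galphaq in heads. Sums of markers are CPM over lists of eye, neuron, ovary and testis genes. Within the adult parts, deviations from the group mean correlated between libraries of the same replicate number in all 15 pairs of groups (r from 0.279 to 0.672). The numbers, which come from the labels, were taken as pairing only in the replicate block and in a permutation within replicate numbers. The main tests used group means alone, so their SEs and p-values leave this pairing out. The procedure was tested on simulated data drawn for male heads over male bodies, where 12294 genes passed the filter. Of 40 genes changed by 8 on the log2 scale 40 were called, of 80 raised by 2 on the log2 scale 34 were called, and of 80 lowered by 2 there were 44 called. Of the unchanged genes 5 were called. The simulation gave all genes a common dispersion and drew libraries independently, without the correlation by replicate number. Its counts therefore need not hold for the real data.

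The alternatives were DESeq2's size factors and upper-quartile factors, DESeq2's Wald test (DESeq2 1.42.0), 2 other filters, the replicate block, fits restricted to the groups at hand, calls without a minimum fold, leaving out single replicates, and other lengths or pseudocounts. Added after the data were seen were leaving out replicate 1 of bodies and gonads together, ratios to trp other than that of trpl, and lengths of exons free of other genes.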

Additional observations from a re-analysis of the deposited data

Results flagged for a closer look

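norpA had a smaller change from body to head in females than in males, and the interaction term for this was −1.44 (SE 0.32, edgeR adjusted p = 0.0101). The same term passed the test for 9 of 44 tested genes of the other cascade, opsin and photoreceptor lists, where 15.7% of all genes were higher and 19.1% were lower. Of the genes named in the text, it was −1.47 for crb (SE 0.45, adjusted p = 0.0341), a regulator of cell polarity, and 1.74 for lovit (SE 0.35, adjusted p = 0.00638), a transporter of photoreceptor synapses. It was 2.59 for ninaD (SE 0.80, adjusted p = 0.0338), and 3.25 for ort (SE 1.02, adjusted p = 0.0360), which had 0 and 4 counts in female bodies, so that its fitted value depends on the prior count. In a pair of ratios to trp, 1 library stood apart from the other 3 of its group. The gap of the most distant library was 0.880 of the range for inaD to trp in bodies and 0.908 for Gbeta76C to trp in heads, above the limit of 0.829 for 4 libraries. Of 21 such groups examined 2 stood out, and chance alone flags about 1 in 20.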

How the results depend on the processing

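All 8 measured genes stayed higher in heads in the 4 head comparisons, and higher in adults than in larvae and embryos, under every alternative run in which they were tested. From male bodies to testes the number called went from 1 to 0 with DESeq2's size factors, DESeq2's Wald test, no filter, or at least 10 counts in every library, and lay between 0 and 1 with a replicate left out. Between female and male bodies it went from 1 to 0 with DESeq2's size factors or at least 10 counts in every library, and lay between 0 and 2 with a replicate left out. DESeq2's Wald test also called 1, but that gene was Arr1 in place of norpA. For the head-to-body change between the sexes it went from 1 to 0 with DESeq2's size factors, the Wald test, or at least 10 counts in every library, and lay between 0 and 1 with a replicate left out. From embryos to larvae it went from 5 to 3 with at least 10 counts in every library or a fit of only these groups, and lay between 3 and 6 with a replicate left out. With at least 10 counts in every library only 6 of the 8 genes, without trp and inaD, were tested in the stages, and otherwise the cause was not tested. The difference of the trp to trpl ratio between heads and bodies was −0.00444 in females alone, 0.61 in males alone and 0.069 to 0.415 with a replicate left out.

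With the replicate number as a block, 2 genes (norpA and Arr1) in place of 1 were called between female and male bodies and 2 for the head-to-body change between the sexes, and no other call of a member changed. An exact permutation test that exchanged libraries only within a replicate number gave p = 0.278 for the trp to trpl ratio. In the stages the same numbers correlated at −0.047 to 0.123 over 3 pairs of groups, so they share only a number.

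Over all genes, the calls were 6497 in male heads over bodies and 3187 with at least 10 counts in every library, and likewise 8663 and 4859 for male heads over testes, 2486 and 1381 for female bodies over ovaries, 6564 and 3647 for female over male bodies, and 6014 and 3804 for adults over embryos. With a fit of only the groups compared they were 5709 in place of 3385 for male bodies over testes, 1341 in place of 2486 for female bodies over ovaries and 7 in place of 4 for female over male heads. For the latter the block gave 8, the Wald test 32, leaving out replicate 1 of bodies and gonads 1, and leaving out a replicate 0 to 3. Leaving out replicate 2 of male bodies gave 1978 for male bodies over testes, and leaving out replicate 2 of male heads or replicate 1 of female heads gave 2737 and 2474 in place of 4386 for the head-to-body change between the sexes.

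Under DESeq2's size factors the share of calls that were higher was 55% in place of 42.8% in female heads over bodies, 41.8% in place of 53.8% in male heads over testes, 51.9% in place of 89.2% in male bodies over testes, 29.4% in place of 46.8% in female over male bodies, 65.5% in place of 45.1% for the change between the sexes and 66.7% in place of 56.5% in adults over larvae. Relative to the median of all genes, no change of a member differed by more than 0.0581 between the scalings. This follows from a scaling shifting all genes about alike and is no test of the calls. The planned ratio of Arr2 to Arr1 could not be run because Arr2 had no counts. Depth limits trp in embryos, trp, inaC, inaD, ninaC and Gbeta76C in larvae, and inaC in testes, which had under 60 counts in each library.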
